A study of Rattus norvegicus with 10 samples.

Results

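Voltage-gated sodium, calcium and HCN channels set when and how a neuron fires, and their transcripts were followed here in the supraoptic nucleus of rats in which the opsin Opn3 had been knocked down. The genes were chosen by name, as every gene of the deposited table whose symbol begins as those of the voltage-gated sodium channels (Scn followed by a number and a or b), the voltage-gated calcium channels and their subunits (Cacna, Cacnb, Cacng), the HCN channels or the sodium leak channel Nalcn. This gave 45 of 32623 genes. Of these, 41 had a mean of at least 10 normalized counts over the 10 samples and were tested among 15597 genes. The other 4, Cacna1f, Cacna1s, Cacna2d4 and Cacng1, lay below that level and were not tested.

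The animals were male Sprague-Dawley rats of 250 to 300 g, an outbred laboratory strain, whose age is not given in the labels. Each rat carried both treatments. One supraoptic nucleus received an adeno-associated virus whose hairpin RNA silences Opn3 (shOpn3, 5 samples), and the other nucleus received a virus whose hairpin has no target (shControl, 5 samples), so the controls had also received a virus and a hairpin. The side, and the promoter or cell type that drove the hairpin, were not given in the sources used here. After 2 weeks each nucleus was taken with a 1 mm punch from 100 µm sections and sequenced on its own. A punch of this size holds magnocellular neurons, other neurons, glia and vessels, so that fewer cells of a type and less RNA per cell cannot be told apart in any result below.

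The supraoptic nucleus holds the magnocellular neurons that make vasopressin and oxytocin and release them from their axon endings as bursts of action potentials arrive there. Sodium channels start each action potential, calcium channels turn it into calcium entry and hormone release, T-type calcium channels and HCN channels act below the firing threshold, and NALCN carries a steady sodium leak that holds the resting potential near threshold. Many of these pores work with auxiliary subunits that move them to the membrane or change their gating.

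The libraries held 33158341 to 39958578 reads. Opn3 fell in the knock-down nuclei, from 704 ± 277 to 188 ± 59.7 normalized counts (mean ± SD, n = 5 a group; log2 fold change -1.82, limma SE 0.320 and adjusted p = 0.00226), although the lowest control, replicate 5 at 261, lay below shOpn3 replicate 1 at 290. Avp and Oxt, the hormone genes that define the tissue, were present in all 10 samples and were lower in shOpn3, with log2 fold changes of -2.35 (SE 0.426) and -2.21 (SE 0.328) and limma adjusted p of 0.00269 and 0.000915. A normalized count is the authors' read count divided by a size factor per sample. Counts are not divided by gene length, so levels are compared between samples and not between genes. Log2 fold changes are shOpn3 minus shControl on the log2(normalized count + 1) scale.

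Of the 41 channel genes tested, 10 changed (limma adjusted p under 0.05), 6 higher and 4 lower. Scn11a, Cacna2d3, Cacng6, Cacna1i and Cacna1h were among those that rose, and Scn9a, Cacng2, Hcn2 and Cacng4 fell. This was 24.4% of the channel genes, beside 18.8% of all genes tested. Higher calls made up 14.6% beside 10.4%, and lower calls 9.76% beside 8.48%. The groups did not overlap for 5 channel genes (12.2%, beside 15.3% of all genes), and all 5 same-numbered pairs differed in the same direction for 15 (36.6%, beside 39.4%). The shares of calls in this fit, of groups without overlap and of uniform pairs were thus near those of all genes. What follows concerns single genes, not the channels as a class. The median log2 fold change was 0.13 for the 41 genes and -0.02 for all genes.

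With the replicate number as a block, 17 of the 41 (41.5%) were called, 10 higher and 7 lower, beside 30.3% of all genes. Whether these shares differ was not tested. Among the 7 added were Scn8a, Cacna1g and Cacng8, all higher, and Scn4a, Scn7a and Cacnb1, all lower. Without shControl replicate 2 or 3, or without shOpn3 replicate 3 or 5, the count of calls was 6 instead of 10, and without shOpn3 replicate 4 it was 13, 11 higher and 2 lower. The 4 lower calls were also 2 without shControl replicate 1 or 4. Scn9a, Scn11a, Cacna1i, Cacna2d3 and Hcn2 were called in every fit that tested them. Among the 12 genes that sample quality weights added were Cacna1g, Cacng5, Cacng7, Hcn4 and Scn8a, all higher. Cacna2d1, Cacnb2, Hcn3, Nalcn, Scn3a and Scn7a were also among these 12, all lower. Quantile normalization added Scn3b and Scn8a. Among the 6 added without shOpn3 replicate 4 were Cacna1e, Cacna1g, Cacnb4, Cacng5 and Scn8a. Below, a gene that did not pass is one not called in the fit by group alone. The authors' deposited table called 15 of the 45 genes at an adjusted p under 0.05, 10 higher and 5 lower, beside 21.3% of all genes with an adjusted p there.

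**Figure D1:**
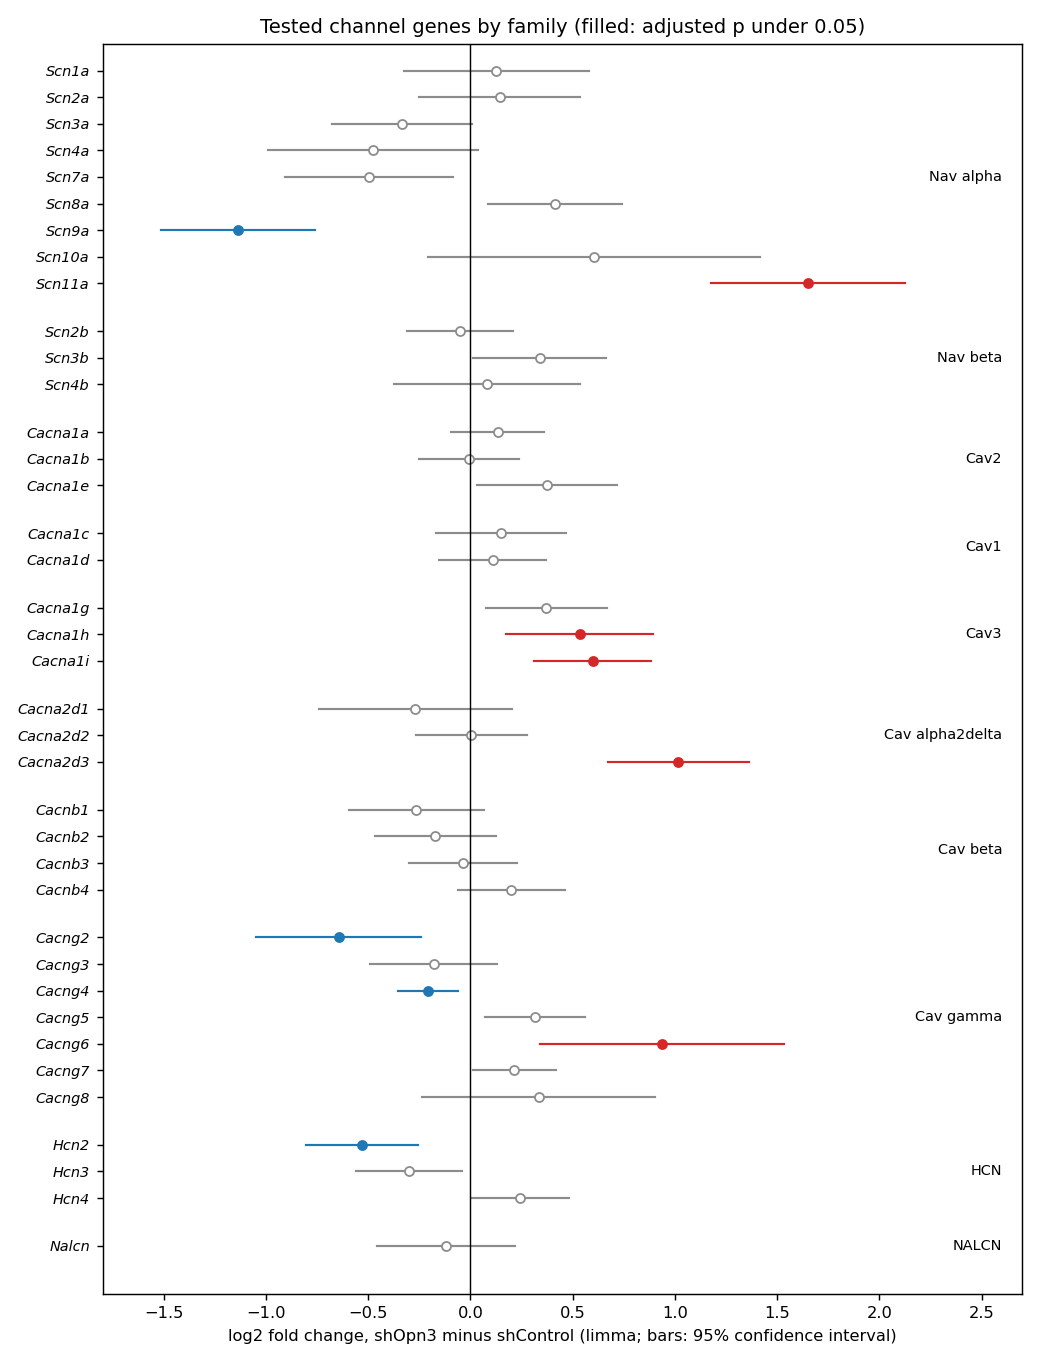
Log2 fold change of 38 tested channel genes (x axis, shOpn3 minus shControl, log2(normalized count + 1) scale) by family (y axis), with its 95% confidence interval from limma over 5 samples a group. Filled points passed an adjusted p of 0.05, red for higher and blue for lower, and run from -1.14 for Scn9a to 1.65 for Scn11a.

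The sequences just upstream of 4 of the genes called in every fit that tested them are printed because these genes give the largest fall and the largest rises within their families: Scn9a and Hcn2 fell, Scn11a and Cacna2d3 rose. Each line is the 250 bases before the RefSeq start site in assembly GRCr8, read 5′ to 3′ on the gene's own strand. Capitals mark each match to the GC box, GGGCGG, on either strand, where adjoining matches can share bases.
Scn9a, GRCr8 chr3:71701378-71701627, minus strand: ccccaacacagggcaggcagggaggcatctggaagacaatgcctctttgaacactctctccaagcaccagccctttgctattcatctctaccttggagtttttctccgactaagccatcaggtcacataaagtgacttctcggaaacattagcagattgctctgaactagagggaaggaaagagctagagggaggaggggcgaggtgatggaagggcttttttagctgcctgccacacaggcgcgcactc
Hcn2, GRCr8 chr7:10639458-10639707, minus strand: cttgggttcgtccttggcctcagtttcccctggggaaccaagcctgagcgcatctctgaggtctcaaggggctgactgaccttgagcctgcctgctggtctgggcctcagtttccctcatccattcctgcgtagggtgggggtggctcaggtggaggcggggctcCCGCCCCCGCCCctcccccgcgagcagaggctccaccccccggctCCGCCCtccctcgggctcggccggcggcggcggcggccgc
Scn11a, GRCr8 chr8:128444719-128444968, minus strand: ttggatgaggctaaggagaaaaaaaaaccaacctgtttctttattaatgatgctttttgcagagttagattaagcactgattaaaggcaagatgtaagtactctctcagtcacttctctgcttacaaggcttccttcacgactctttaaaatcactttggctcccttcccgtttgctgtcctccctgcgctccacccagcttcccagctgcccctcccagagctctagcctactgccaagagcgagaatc
Cacna2d3, GRCr8 chr16:4918900-4919149, minus strand: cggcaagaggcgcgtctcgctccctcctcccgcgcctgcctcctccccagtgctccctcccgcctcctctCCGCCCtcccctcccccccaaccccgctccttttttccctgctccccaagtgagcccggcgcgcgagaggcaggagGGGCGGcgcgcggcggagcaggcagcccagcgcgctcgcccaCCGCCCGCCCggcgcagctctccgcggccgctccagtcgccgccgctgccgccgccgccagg
Of the 45 channel genes, 29 had such a window in the RefSeq table. The window of Cacna2d3 held 4 GC boxes at 78.8% G and C and that of Hcn2 held 3 at 71.6%, while those of Scn9a (52.4%) and Scn11a (46.4%) held none. Over the 33469 windows of the table, 30.5% held at least 1 GC box and the median was 51.2% G and C. Among the 29 channel genes with a window, 14 held a GC box. Some of these genes had more than 1 window. Counted by window, 16 of 32 held a GC box, and the median of the channel gene windows was 63.0% G and C. On both strands, the TATA box TATAAA was found in 2 of these 32 windows (12.9% of all windows). The AP-1 site TGANTCA was found in 1 (6.34%) and the cyclic AMP response element TGACGTCA in 0 (1.59%). The windows of Scn9a and Scn11a held 0 matches to any of the 4 motifs, and a match or its absence describes these windows only. Of the windows with GC boxes and of those without, each pair belonged to a gene that rose and a gene that fell.

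Among the 10 pore-forming sodium channel genes, Scn9a fell, Scn11a rose and the other 8 did not pass the test. The median log2 fold change of the 10 was 0.14. Scn9a encodes Nav1.7, known from pain-sensing neurons and also made by magnocellular neurons. Its normalized counts were 2359, 3293, 4268, 3549 and 2446 in shControl replicates 1 to 5 and 1869, 1565, 1281, 1192 and 1243 in shOpn3 replicates 1 to 5. Every knock-down nucleus lay below every control. The mean went from 3183 ± 797 to 1430 ± 285 (mean ± SD, n = 5 a group), or 0.449 of the control. The log2 fold change was -1.14 (limma SE 0.173, 95% interval -1.52 to -0.76, adjusted p = 0.00101). The two-sided exact permutation p was 0.00794, the lowest value possible with 5 samples a group. Here and below this permutation does not use the pairing of the samples. The fall was smallest in pair 1 (-0.34) and largest in pair 3 (-1.74).

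Scn11a encodes Nav1.9, a slowly inactivating channel best known from sensory ganglia. Its counts were low throughout, at 10.2, 11.2, 17.3, 10.3 and 9.49 in shControl replicates 1 to 5 and 28.8, 43.5, 41.1, 37.7 and 41.1 in shOpn3 replicates 1 to 5. The groups were well apart, and shControl replicate 3 stood above the other controls. The mean rose 3.28-fold, from 11.7 ± 3.21 to 38.4 ± 5.79 (mean ± SD, n = 5 a group; log2 fold change 1.65, limma SE 0.219 and adjusted p = 0.000533; exact permutation p = 0.00794). Its neighbour Scn10a (Nav1.8), also a sensory ganglion channel, had 5.09 to 17.3 in shControl and 10.3 to 24.0 in shOpn3, and the log2 difference of 0.60 did not pass (limma SE 0.373 and adjusted p = 0.295).

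Scn1a, Scn2a and Scn3a, the classical sodium channel genes of the brain, did not pass the test. Scn2a (Nav1.2), a main channel of unmyelinated axons, had 13362, 16055, 17342, 15408 and 9671 normalized counts in shControl replicates 1 to 5 and 18887, 19978, 15359, 11083 and 14169 in shOpn3. The ranges overlapped widely, with a log2 difference of 0.14 (limma SE 0.181, 95% interval -0.25 to 0.54, adjusted p = 0.633). Scn3a (Nav1.3), prominent in the developing brain, had 4024, 4794, 5519.8, 4651 and 3285 in shControl and 4345, 4239, 3214, 2669.8 and 3240.2 in shOpn3. It was lower in 4 of 5 pairs, yet the groups overlapped and the log2 difference of -0.33 did not pass (limma SE 0.158, 95% interval -0.68 to 0.01, adjusted p = 0.168). Scn1a (Nav1.1), typical of fast-spiking interneurons, differed by 0.13 (95% interval -0.33 to 0.58).

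Scn8a, Scn7a and Scn4a did not pass in the fit by group alone but passed with the replicate block. Scn8a encodes Nav1.6, the channel of mature nodes and axon initial segments, and had 2205 to 3297 normalized counts in shControl and 2766 to 4587 in shOpn3 (log2 difference 0.41, limma SE 0.150 and adjusted p = 0.0765, and 0.0332 with the replicate block). Scn7a encodes Nax, a channel that opens with extracellular sodium rather than voltage and is known from glia of sodium-sensing brain regions. It had 337 to 653 in shControl and 240 to 393 in shOpn3 (log2 difference -0.50, limma SE 0.189 and adjusted p = 0.0893, and 0.0457 with the block). Scn4a (Nav1.4), the skeletal muscle channel, was lower in 5 of 5 pairs (log2 difference -0.48; limma adjusted p = 0.187, and 0.0394 with the block). Scn8a and Scn7a were also called without a block by DESeq2 (adjusted p = 0.0407 and 0.0467) and with sample quality weights, and Scn8a with quantile normalization and without shOpn3 replicate 4. Scn4a was called with the block alone, by limma and by edgeR. The groups of these 3 genes overlapped.

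Several of these genes stand side by side on a chromosome, in the order Scn3a, Scn2a, Scn1a, Scn9a and Scn7a in the RefSeq annotation, with at most 4 other protein-coding genes between neighbours. Of this row Scn9a changed, and Scn7a was called as well with the replicate block, by DESeq2 and with sample quality weights. Within each sample the log2 level of Scn9a minus that of Scn1a ran from -0.28 to 0.36 in shControl and from -1.65 to -0.71 in shOpn3. These values are a description of a pair chosen after its values were seen. The alpha genes of this row are close in sequence, and how reads shared between them were counted was not given in the sources used here.

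Beta subunits of sodium channels change channel gating and also act as adhesion molecules. Scn2b, Scn3b and Scn4b did not pass the test. Scn3b had 6012, 7872, 9480, 9094 and 5732 in shControl and 9307, 11255, 10038, 7765 and 9253 in shOpn3. It was higher in 4 of 5 pairs, but shOpn3 replicates 1, 4 and 5 lay within the control range, and the log2 difference of 0.34 did not pass (limma SE 0.150, 95% interval 0.01 to 0.66, adjusted p = 0.142). Scn2b and Scn4b differed by -0.05 and 0.08 on the log2 scale (95% intervals -0.31 to 0.21 and -0.37 to 0.54). Scn4b ranged widely in shOpn3, from 351 in replicate 1 to 882 in replicate 2.

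**Figure D2:**
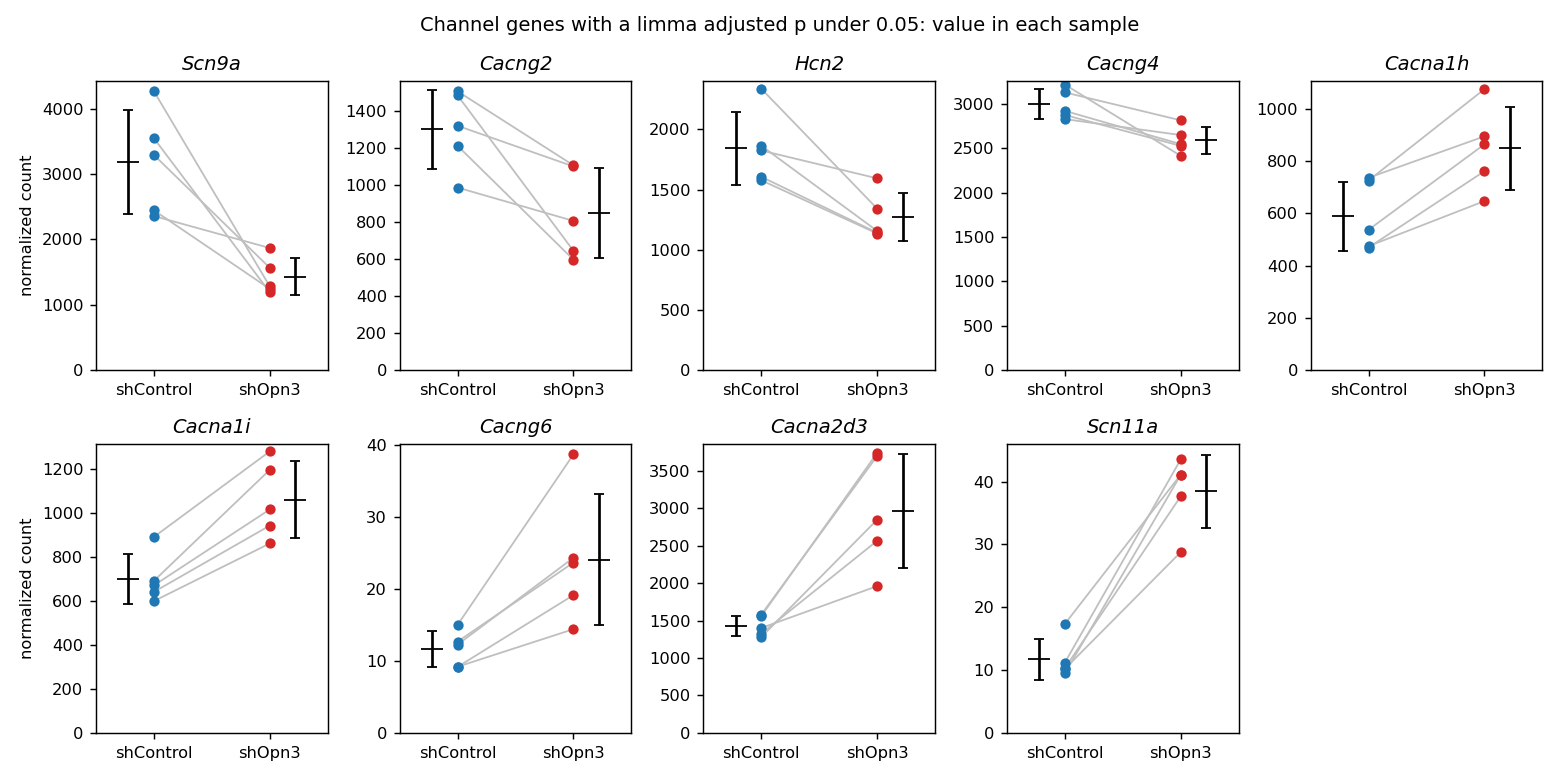
Normalized counts (y axis, from 0) of 9 channel genes with a limma adjusted p under 0.05 in each sample, with shControl in blue and shOpn3 in red, grey lines joining samples with the same replicate number, and black bars for the mean ± SD of 5 samples. The groups are separate for Scn9a, Cacng4, Cacna2d3 and Scn11a and overlap for the other 5.

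Calcium channel pores fall into L-type (Cav1), P/Q-, N- and R-type (Cav2) and T-type (Cav3) families. All calls among them were in the T-type family, where Cacna1i and Cacna1h rose and Cacna1g did not pass in the fit by group alone. T-type channels open at low voltages and are known for burst firing. Cacna1i (Cav3.3) had 892, 672, 642, 600 and 692 normalized counts in shControl replicates 1 to 5 and 1282, 1017, 944, 863 and 1198 in shOpn3. Only shControl replicate 1 reached into the knock-down range. The mean rose from 699.5 ± 113 to 1061 ± 175 (mean ± SD, n = 5 a group; log2 fold change 0.60, limma SE 0.132 and adjusted p = 0.00785; exact permutation p = 0.0159).

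Cacna1h (Cav3.2) had 726, 537, 469, 475 and 736 in shControl and 1075, 865, 762, 647 and 895 in shOpn3. Its pairs were all higher, by 0.28 to 0.70, while shControl replicates 1 and 5 lay within the knock-down range (log2 fold change 0.54, limma SE 0.165 and adjusted p = 0.0404; exact permutation p = 0.0317). This call was lost without any 1 of shControl replicates 2, 3 and 4 or shOpn3 replicates 1, 2, 3 and 5, and without both samples of replicate 5, with adjusted p from 0.0527 to 0.0969. Cacna1g (Cav3.1) was also higher in 5 of 5 pairs, with 1168 to 1618 in shControl and 1312 to 2135 in shOpn3 (log2 difference 0.37, limma SE 0.136 and adjusted p = 0.0801, and 0.00870 with the replicate block). Cacna1g was also called without a block by DESeq2 (adjusted p = 0.0495), with sample quality weights, and by limma without shControl replicate 1 or shOpn3 replicate 4 (adjusted p = 0.0386 and 0.0300). Within the pairs, all 3 T-type genes were thus higher in 5 of 5, while 39.4% of all genes tested had all 5 pairs in the same direction. The groups of all 3 overlapped.

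The high-voltage-activated pores did not pass. Cacna1a (P/Q-type) and Cacna1b (N-type), which drive transmitter and hormone release at axon endings, differed by 0.13 (95% interval -0.09 to 0.36) and -0.01 (-0.25 to 0.24) on the log2 scale. Cacna1e (R-type) was higher in 4 of 5 pairs, from 2267 to 2934 in shControl and from 2459 to 5044 in shOpn3, with a log2 difference of 0.37 (limma SE 0.158 and adjusted p = 0.124). The L-type genes Cacna1c and Cacna1d, whose channels couple activity to gene expression, differed by 0.15 and 0.11 (95% intervals -0.17 to 0.47 and -0.15 to 0.37). Of the L-type genes not tested, Cacna1f, known from the retina, had 6.11 to 13.1 in shControl and 3.19 to 5.80 in shOpn3, and Cacna1s, the skeletal muscle gene, had 2.04 to 6.12 and 5.14 to 11.7. The sum over all 10 calcium channel pore genes was 13871 ± 1113 in shControl and 16252 ± 3005 in shOpn3 (mean ± SD, n = 5 a group), with overlapping ranges.

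Among the auxiliary subunits of calcium channels, Cacna2d3 rose the most. It encodes the third alpha2delta protein, a largely extracellular subunit of the kind that brings channels to the membrane. Its normalized counts were 1578, 1559, 1323, 1400 and 1278 in shControl replicates 1 to 5 and 3696, 3736, 2564, 1959 and 2846 in shOpn3. All knock-down nuclei lay above all controls, and shOpn3 replicate 4 was the nearest to them. The mean rose 2.07-fold, from 1427 ± 136 to 2960.2 ± 761 (mean ± SD, n = 5 a group; log2 fold change 1.02, limma SE 0.159 and adjusted p = 0.00116; exact permutation p = 0.00794).

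The other alpha2delta genes tested did not pass. Cacna2d1, whose protein binds gabapentin, had 4490, 6969, 7762, 6236 and 4054 in shControl and 6199.5, 6332, 4480, 3165 and 4334 in shOpn3. Its pairs were split, 2 higher and 3 lower, with a log2 difference of -0.27 (limma SE 0.216, 95% interval -0.74 to 0.20, adjusted p = 0.430). Within a sample the log2 level of Cacna2d3 minus that of Cacna2d1 ran from -2.55 to -1.51 in shControl and from -0.80 to -0.61 in shOpn3, a pair chosen after its values were seen. Cacna2d2 differed by 0.0035 (95% interval -0.27 to 0.27), and Cacna2d4 was not tested, with 3.75 to 12.2 in shControl and 2.12 to 12.1 in shOpn3.

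None of the 4 intracellular beta subunit genes, Cacnb1 to Cacnb4, passed. Their log2 differences lay between -0.26 for Cacnb1 and 0.20 for Cacnb4, and 0 of them had an unadjusted p under 0.05. Cacnb1 was lower in 5 of 5 pairs, with 1304 to 1886 normalized counts in shControl and 940 to 1689 in shOpn3 (limma adjusted p = 0.257, and 0.0474 with the replicate block). Of the 4, Cacnb3 differed least within its pairs, by -0.13 to 0.03 on the log2 scale.

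Most products of the gamma subunit genes (Cacng) are now known as partners of AMPA-type glutamate receptors. Of the 7 tested, Cacng6 rose, Cacng2 and Cacng4 fell and 4 did not pass. Cacng2, or stargazin, which brings AMPA receptors to synapses, had 1505, 1319, 1483, 1211 and 985 in shControl replicates 1 to 5 and 1105, 1099, 644, 596 and 805 in shOpn3. It was lower in 5 of 5 pairs, and shControl replicate 5 lay within the knock-down range. Its mean fell from 1300.4 ± 214 to 849.95 ± 243 (mean ± SD, n = 5 a group; log2 fold change -0.64, limma SE 0.186 and adjusted p = 0.0298; exact permutation p = 0.0317). Leaving out any 1 of shControl replicates 1 to 4 or shOpn3 replicates 3 to 5 ended the call, with adjusted p from 0.0507 to 0.0821.

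Cacng4, also an AMPA receptor partner, had 3131, 2830, 2923, 2876 and 3219 in shControl and 2816, 2650, 2548, 2528 and 2415 in shOpn3. The groups were separate by a narrow margin, 2830 against 2816. The fall was small, with a log2 fold change of -0.21 (limma SE 0.0677 and adjusted p = 0.0491; exact permutation p = 0.00794). It lost its call in 13 of 23 alternative fits, among them every fit that left out 1 sample except that without shOpn3 replicate 1, with adjusted p from 0.0560 to 0.200. Cacng6, whose product is a muscle-type gamma subunit, had 9.18, 9.16, 12.2, 14.98 and 12.7 in shControl and 14.4, 19.1, 24.3, 38.6 and 23.6 in shOpn3. These are counts of few reads, and shOpn3 replicate 1 lay within the control range (log2 fold change 0.94, limma SE 0.274 and adjusted p = 0.0321; exact permutation p = 0.0159). Its call was lost in 9 of 22 alternative fits, namely without any 1 of shControl replicates 1, 2 and 3 or shOpn3 replicates 3, 4 and 5, without both samples of replicate 5, with quantile normalization and with no filter on low values (adjusted p from 0.0502 to 0.0876).

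The gamma genes that did not pass were Cacng3, Cacng5, Cacng7 and Cacng8. Cacng5 and Cacng7 were higher in 4 of 5 pairs (log2 differences 0.32 and 0.21; limma adjusted p = 0.0702 and 0.135). Cacng5 was called by DESeq2 (adjusted p = 0.0374), with sample quality weights and without shOpn3 replicate 4. Cacng7 was called with sample quality weights alone. Cacng8 was higher in 5 of 5 pairs (log2 difference 0.33; limma adjusted p = 0.422, and 0.0305 with the replicate block), and Cacng3 differed by -0.18 (95% interval -0.49 to 0.13). Cacng1, a muscle gene, was not tested, with at most 7.73 normalized counts in any sample. In the RefSeq annotation Cacng6, Cacng8 and Cacng7 adjoin each other, as do Cacng1, Cacng4 and Cacng5, and in the second row the tested genes Cacng4 and Cacng5 had log2 differences of -0.21 and 0.32.

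HCN channels open on hyperpolarization and are tuned by cyclic AMP, and their current helps to pace firing. Hcn2 fell, and Hcn3 and Hcn4 did not pass. Hcn2 had 2339, 1865, 1578, 1607 and 1825 normalized counts in shControl replicates 1 to 5 and 1342, 1157, 1135, 1142 and 1593 in shOpn3. All 5 pairs were lower, and only shOpn3 replicate 5 reached the control range. The mean fell from 1843 ± 305 to 1274 ± 198 (mean ± SD, n = 5 a group; log2 fold change -0.53, limma SE 0.126 and adjusted p = 0.0115; exact permutation p = 0.0159).

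Hcn3, whose channel is only weakly tuned by cyclic AMP, was lower in 4 of 5 pairs, with a log2 difference of -0.30 (limma SE 0.119 and adjusted p = 0.102). Without shControl replicate 5 it was called (log2 fold change -0.42, limma adjusted p = 0.00458). That sample, at 692, was the lowest of either group, while the other controls had 960.3 to 1113. Hcn3 was also called without both samples of replicate 5 (limma adjusted p = 0.00948) and with sample quality weights (limma-voom adjusted p = 0.00361). Hcn4 was higher in 4 of 5 pairs, by a mean of 0.24 on the log2 scale (95% interval 0.01 to 0.48; limma adjusted p = 0.146). Within each sample the log2 level of Hcn2 minus that of Hcn4, a pair chosen after its values were seen, was 2.11 to 2.45 in shControl and 1.24 to 1.71 in shOpn3. Not every such pair separated the groups. For Scn11a minus Scn10a and for Cacng4 minus Cacng5 the ranges of shControl and shOpn3 overlapped. The means of these pairs differed by 1.048 and -0.525 (shOpn3 minus shControl).

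Nalcn, the sodium leak channel, had 8106, 11258, 12649, 10636 and 6718 normalized counts in shControl replicates 1 to 5 and 9057, 10151, 9200.3, 7721 and 8320 in shOpn3. The knock-down samples lay inside the control range. The log2 difference was -0.12 (limma SE 0.155, 95% interval -0.46 to 0.22, adjusted p = 0.639).

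**Figure D3:**
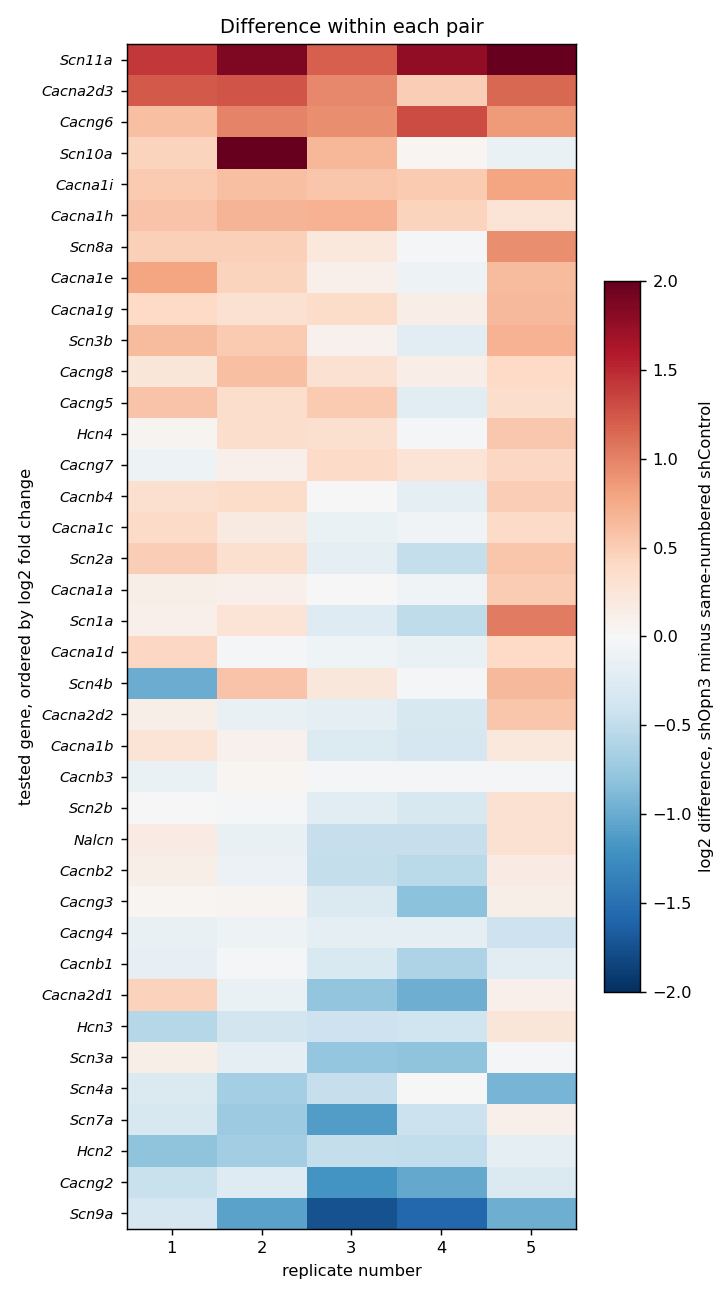
Difference within each same-numbered pair (columns 1 to 5; colour, log2 shOpn3 minus log2 shControl, from -2 in blue to 2 in red, with values past the ends in the end colours) for 38 tested channel genes (rows, ordered by log2 fold change). Scn11a and Cacna2d3 are red and Scn9a and Hcn2 are blue in all 5 columns, while the middle rows change colour between columns.

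Many of these genes were low or high in the same libraries. Of the 41 genes tested, shControl replicate 5 was the lowest control for 24 and shOpn3 replicate 4 the lowest knock-down sample for 31, and replicate 1 was the highest of its group for 20 in shControl and for 20 in shOpn3. The same was not counted over all genes tested, so these counts do not set the channel genes apart. The mean log2 level of 12 pan-neuronal genes was likewise lowest in shControl replicate 5, at 12.87 beside 13.09 to 13.18 in the other controls. In shOpn3 it was lowest in replicate 4, at 12.70 beside 13.02 to 13.38 in the others. It was not highest in replicate 1: shControl replicate 3 had 13.184 and replicate 1 13.176, and shOpn3 replicate 2 had 13.380 and replicate 1 13.231. Without both samples of replicate 5 there were 8 calls, with the calls of Cacna1h, Cacng4 and Cacng6 lost and Hcn3 added. The part of neuronal content in these values was not tested.

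Marker lists of other cell types moved with the groups. All 8 oligodendrocyte genes fell (median log2 fold change -1.27), as did 9 of 10 magnocellular genes (-1.47) and 3 of 6 genes of the oligodendrocyte precursor list (-0.43). That list held Pdgfra, Cspg4, Gpr17, Olig1, Olig2 and Sox10. Whether its fall came from precursors or from mature oligodendrocytes was not tested. Microglial genes rose for 7 of 8 (1.08), T cell genes for 5 of 6 (1.24, with Cd4 also made by rat microglia) and astrocyte genes for 4 of 8 (0.32). Of 12 pan-neuronal genes 2 rose and 3 fell (-0.02). Of 10 genes of cortical and striatal neurons 4 rose and 1 fell (0.46), and 0 of 5 endothelial, 0 of 6 mural and 0 of 4 transmitter genes of GABA and glutamate neurons were called by limma. At an unadjusted p under 0.05 these last 3 lists had 0, 0 and 1 genes, and with the replicate block 1 endothelial gene was called.

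The summed normalized counts of the oligodendrocyte list were 731349 to 1246220 in shControl and 249044 to 470895 in shOpn3, those of the microglial list 8502 to 11499 and 15882 to 31303, and those of the magnocellular list 72339 to 189847 and 17046 to 44224. For the T cell list they were 641 to 838 and 1557 to 4433, and for the cortical and striatal list 4300 to 7926 and 5849 to 7657. No marker of any list was at 0 in all samples. These shifts stand beside each of the channel results above, those of Scn9a, Scn11a, Cacna1i, Cacna2d3 and Hcn2 included, and their part in them was not tested.

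**Figure D4:**
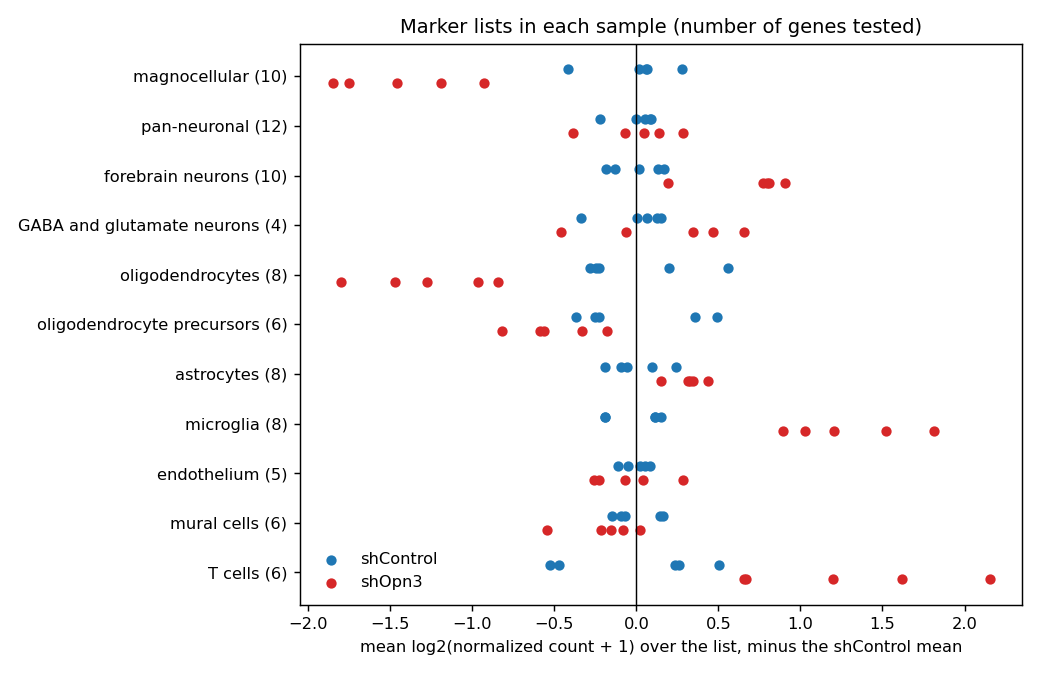
Mean log2(normalized count + 1) over each marker list in each sample, minus the shControl mean of that list (x axis), with 5 shControl samples in blue and 5 shOpn3 samples in red, and the number of genes tested in brackets. Magnocellular and oligodendrocyte lists lie lower and microglial, T cell and forebrain (cortical and striatal) neuron lists higher in all shOpn3 samples than in any shControl sample, the last by a narrow margin (at most 7.75 in shControl and at least 7.78 in shOpn3), while pan-neuronal, endothelial and mural lists overlap.

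Genes of proteins that bind, anchor or remove these channels were then read. Of 34 listed partner symbols, some of them older and newer names of the same gene, 29 matched a unique entry and 28 were tested. Of these, 6 rose and 3 fell, beside 10.4% and 8.48% of all genes, and the median log2 fold change was 0.04. For 7 of the 28 the ranges of both groups were separate, beside 15.3% of all genes. With the replicate block 7 were higher and 5 lower, beside 15.1% and 15.2% of all genes.

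Partners of sodium channels are given first. Nedd4l, a ubiquitin ligase that removes sodium channels from the membrane, had 1429, 1235, 1243, 1199 and 1478 normalized counts in shControl replicates 1 to 5 and 2888, 2790.1, 2505, 2214 and 2514 in shOpn3. The groups were far apart, with a log2 fold change of 0.97 (limma SE 0.0919 and adjusted p = 0.000149; exact permutation p = 0.00794). Fgf13, an intracellular fibroblast growth factor homologue that binds the tail of sodium channels, rose from 1436 ± 146 to 2871 ± 445 (mean ± SD, n = 5 a group; log2 fold change 0.99, limma SE 0.111 and adjusted p = 0.000306). Nfasc, an adhesion protein of axon initial segments and of the myelin beside nodes, fell from 15565 ± 2540 to 11001 ± 1539 (mean ± SD, n = 5 a group; log2 fold change -0.50, limma SE 0.125 and adjusted p = 0.0155). All 8 oligodendrocyte genes fell in these samples as well, and the part of that shift in the fall of Nfasc was not tested.

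Rem2, a small GTPase that inhibits high-voltage-activated calcium channels, rose from 43.7 ± 5.30 to 89.3 ± 18.1 (mean ± SD, n = 5 a group; log2 fold change 1.00, limma SE 0.172 and adjusted p = 0.00202). Pex5l, also called TRIP8b, is the auxiliary subunit that controls the trafficking of HCN channels. Its counts were 5279, 4049, 3990, 3375 and 5393 in shControl replicates 1 to 5 and 2573, 2468, 2142, 2433 and 3076 in shOpn3. Like Hcn2 it was lower in 5 of 5 pairs, while 39.4% of all genes had all 5 pairs in the same direction. Its groups did not overlap (log2 fold change -0.79, limma SE 0.135 and adjusted p = 0.00203). In these samples all 8 oligodendrocyte genes fell as well, and the part of that shift in the fall of Pex5l was not tested. Fam155b, of the family of subunits of the NALCN complex, rose from 563 ± 45.1 to 729 ± 50.1 (mean ± SD, n = 5 a group; log2 fold change 0.37, limma SE 0.0861 and adjusted p = 0.00984).

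The remaining 3 calls, and the uncalled Unc80, Ank3, Cbarp and Rimbp2 beside them, are named after their values were seen. Unc79, a large subunit of the NALCN complex, rose (log2 fold change 0.25, limma SE 0.0778 and adjusted p = 0.0387), while its companion Unc80 had a log2 difference of -0.30 that did not pass (limma adjusted p = 0.214). Rims1, a release-site protein that binds calcium channels, rose by 0.41 on the log2 scale (limma SE 0.104 and adjusted p = 0.0171), and the scaffold gene Mapk8ip2 had a log2 fold change of -0.33 (limma SE 0.106 and adjusted p = 0.0460). For Rims1 and Mapk8ip2 the groups overlapped. Ank3, the ankyrin that anchors sodium channels at the axon initial segment, was lower in 5 of 5 pairs and passed with the block (log2 difference -0.41; limma adjusted p = 0.0667, and 0.0202 with the replicate block). So did Cbarp, lower in 5 of 5 pairs (log2 difference -0.67; limma adjusted p = 0.114, and 0.00114 with the block). Rimbp2, higher in 5 of 5 pairs, passed with the block as well (log2 difference 0.37; limma adjusted p = 0.0939, and 0.00520 with the block).

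**Figure D5:**
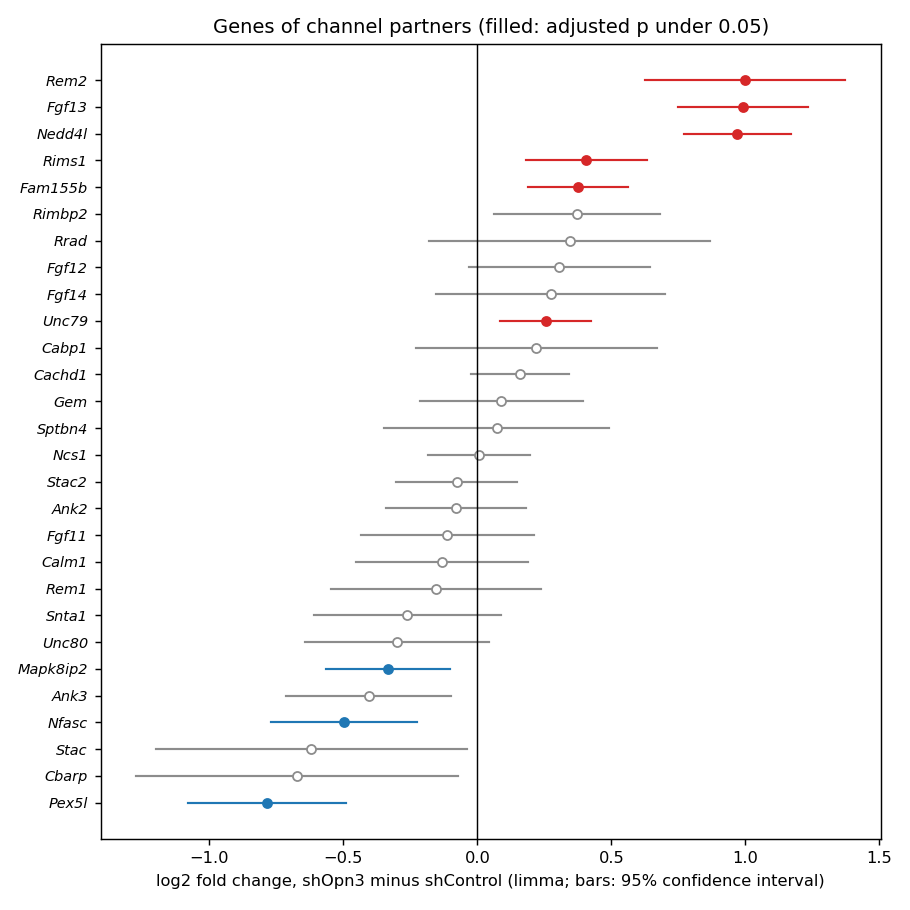
Log2 fold change (x axis, shOpn3 minus shControl, log2(normalized count + 1) scale) with its 95% confidence interval from limma over 5 samples a group for the 28 tested genes of channel partners (y axis). Filled points passed an adjusted p of 0.05: Rem2, Fgf13 and Nedd4l lie between 0.97 and 1.00, and Pex5l is the lowest of those called at -0.79.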

How the data were processed

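The authors sequenced RNA of 10 supraoptic nuclei and deposited 1 table of their DESeq2 comparison. Per the submitters' processing notes, FastQC, STAR, featureCounts and DESeq2 were used. Versions, genome build, annotation and strand setting are not given in the sources used here, so reads of near-identical, overlapping or antisense genes cannot be told apart. The deposited sample columns are a signal, namely read counts divided by a size factor (0.942 to 1.07 per sample). All values came out as whole reads within 0.001 once multiplied back. The deposited log2 fold change, Wald score, p-value and adjusted p-value are the authors' own, apart from the limma values given in the text. DESeq2 (1.42.0) on the recovered reads gave log2 fold changes that differed from the deposited ones by over 1e-04 for 0 of 23160 genes.

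Genes with a mean of at least 10 were tested on log2(normalized count + 1) with limma (3.58.1, R 4.3.3; group as the only term, trended variance, 5 against 5 samples) and Benjamini-Hochberg adjustment over 15597 genes at 0.05. The script was tested on simulated data. Single genes also had an exact two-sided permutation test over 252 splits of all samples, which does not keep pairs together. Adjusted p-values in the text are limma's unless another method is named. Alternatives were edgeR (4.0.16) quasi-likelihood and DESeq2 on recovered reads, limma-voom with sample quality weights, TMM scaling, quantile normalization, pseudocounts of 0.5 and 5, no filter or a mean of at least 50, each sample left out, and the replicate number as a block.

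The labels put both hairpins into each rat but do not say that a number marks a rat. Same-numbered samples deviated together from their group means in all 5 pairs (correlation 0.121 to 0.439, lowest in pair 4). For other numbers the median was -0.205 and the range -0.447 to 0.360, so the highest exceeded pair 4. Deviations sum to 0 within a group, so the values for other numbers are not a separate contrast. The numbers were taken to pair the samples, which these correlations alone cannot settle. Named genes were all channel genes past the threshold, the 5 with the highest mean among those not past it, and the 6 partners with the smallest p. Others are named by family, except 3 channel genes that entered the fits and counts but are not reported here. Members and lists were chosen with earlier results of these data known. Promoter windows were matched by symbol to the RefSeq table (GRCr8), and their 50 bases after the start were not used. Of the listed partner symbols, Fam155a, Nalf1, Nalf2 and Calm3 were not analysed under those names, nor was the endothelial marker Pecam1. Nalf1 and Nalf2 are newer names of Fam155a and Fam155b, and Fam155b was tested. Calm2, with 2 entries, was left out.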

Additional observations from a re-analysis of the deposited data

Results flagged for a closer look

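Of 100 group values examined (the 41 channel genes tested, Opn3, Avp, Oxt and the 6 named partners, in 2 groups of 5), 4 had a highest or lowest sample that stood apart from the other 4 by Dixon's test at the 95% level, and chance alone flags about 1 in 20 such groups, or 5 here. Scn11a had 17.3 normalized counts in shControl replicate 3, beside 11.2 in the next highest control. Cacnb4 had 1543 in shOpn3 replicate 4, beside 2137 in the next lowest knock-down sample. Cacng5 had 675 in the same sample, beside 897. That library was the lowest of its group for 31 of the 41 channel genes tested, a count not made over all genes. Without it Cacnb4 and Cacng5 were both called higher. Oxt had 56716 in shControl replicate 1, beside 21354 in the next highest control.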

How the results depend on the processing

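Of 1147 alternative log2 differences of the 50 genes followed (the 41 channel genes tested, Opn3, Avp, Oxt and 6 partners), 1119 kept their direction: 1038 stayed on their side of the threshold, 38 lost the call and 43 gained one. The other 28 reversed. Against 10 calls (6 higher, 4 lower) among the channel genes, 9 of 28 partners (3 lower) and 2940 of all genes (1618 higher, 1322 lower), the replicate block gave 17 (10 and 7), 5 lower partners and 4726 (2350 and 2376). It ended no call among the channel genes. edgeR with the replicate block, added after the data were seen, gave 17 (10 and 7), 5 lower partners and 4777 (2490 lower). Sample quality weights gave 22 (12 and 10), 15 partners (6 lower) and 5085 (2441 and 2644). DESeq2 gave 10 higher channel genes, and quantile normalization left 1 lower partner. The cause was not tested. Leaving out 1 sample gave 6 to 13 channel genes (4 to 11 higher, 2 to 4 lower), 7 to 10 partners (5 to 6 higher, 2 to 5 lower) and 1987 to 3056 of all genes (1167 to 1651 higher, 820 to 1405 lower).

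The 28 reversals fell on 7 uncalled genes near 0. With quality weights the log2 differences were -0.00592 for Scn1a, -0.0391 for Scn2a, -0.0502 for Cacna2d2 and 0.0768 for Cacnb3. Cacna1b was 0.00602 with DESeq2 and 0.0388 with quantile normalization. Cacna2d2 was -0.00497 with TMM and -0.00605 with edgeR and the replicate block. Without both samples of replicate 5, Scn1a was -0.0999, Scn2b (not reversed) -0.140, Scn4b -0.0606 and Cacna2d2 -0.135, and without both of replicate 1 Cacna2d2 was -0.0257 and Scn4b 0.351. Leaving out 1 sample moved Scn1a from -0.0463 to 0.257, Scn2b from -0.121 to 0.0285, Scn4b from -0.0599 to 0.271, Cacna1b from -0.0814 to 0.0817, Cacna2d2 from -0.0751 to 0.0904 and Cacnb3 from -0.0966 to 0.0459. Among the 6 named partners, the call of Nfasc was lost with quantile normalization (log2 difference -0.37, adjusted p = 0.0937). With 5 samples a group, small differences in genes of few reads, such as Scn10a and Cacng6, were not well resolved.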
